A study of Mus musculus with 6 samples.

Results

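Interferon-stimulated genes outside the Oas family were followed in B cells of the splenic marginal zone, which borders the white pulp and meets antigen from the blood, with and without a conditional knockout of CK2α. CK2α is a catalytic subunit of the kinase CK2 and is encoded by Csnk2a1. The members were 50 named genes that type I interferon is known to induce, found in the table by their Ensembl identifier. All 50 were measured, among 14864 genes in the table and 14855 tested. The cells came by flow sorting from spleens of C57BL/6 mice aged 8 weeks, with 3 libraries labelled wild type (WT) and 3 labelled CK2α-cKO (cKO). No Cre driver, sort gate, sex or litter is named in the labels, nor whether each library came from its own mouse. The p-values therefore measure only how far these libraries vary, and part of that may be technical.

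Type I interferon binds the IFNAR1 and IFNAR2 receptor chains, and the kinases JAK1 and TYK2 then activate the transcription factor complex ISGF3, of which IRF9 is a subunit. ISGF3 binds the interferon-stimulated response element (ISRE) in promoters. The genes induced encode sensors of viral RNA and DNA, proteins that block viral replication, the ubiquitin-like modifier ISG15 and its enzymes, and membrane and nuclear proteins. Interferon gamma acts through the gamma-activated site (GAS) and induces an overlapping set.

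A look at the promoters shows what the members share in sequence. RefSeq (GRCm38.p6) gave a window from 250 bases before to 50 after the start site for 37 of the 50 members, in 47 windows. The ISRE core GAAANNGAAA, on either strand, lay in a window of 16 of these 37 genes (43.2%), against 1079 of 27025 genes with a window (3.99%). By window the shares were 38.3% and 3.44%. A longer form that contains the core, GAAANNGAAACT, was found for 8 members (21.6%) and for 0.303% of all genes. The GAS core TTCNNNGAA, which reads alike on both strands and can share bases with an ISRE match, was found for 6 members (16.2%) and 9.55% of all genes. Members were picked as interferon-induced genes, so these shares describe the list. A match is a match of letters and not a measured binding site.

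The following stretches are shown because they carry the ISRE core in members that rose and in members that did not pass the test. Capitals mark each match to the core or to its reverse complement TTTCNNTTTC, and all stretches are written 5′ to 3′ on the gene's own strand.
Isg15, rose (chr4:156200855-156200916, minus strand): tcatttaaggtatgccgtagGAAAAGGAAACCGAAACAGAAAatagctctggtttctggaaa
Ifit3, rose (chr19:34583353-34583436, plus strand): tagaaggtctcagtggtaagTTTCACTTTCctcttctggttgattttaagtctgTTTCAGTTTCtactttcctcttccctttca
Phf11b, rose (chr14:59341351-59341400, minus strand): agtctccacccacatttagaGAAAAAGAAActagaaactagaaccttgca
Trim30d, rose (chr7:104507861-104507910, minus strand): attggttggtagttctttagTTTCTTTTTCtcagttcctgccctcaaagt
Lgals9, rose (chr11:78984950-78984999, minus strand): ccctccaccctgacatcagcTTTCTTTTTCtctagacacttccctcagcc
Trim30a, not called (chr7:104465200-104465249, minus strand): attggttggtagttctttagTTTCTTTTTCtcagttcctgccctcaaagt
Ifit1, not called (chr19:34640765-34640833, plus strand): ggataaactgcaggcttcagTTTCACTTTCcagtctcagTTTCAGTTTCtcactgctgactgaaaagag
Bst2, not called (chr8:71537567-71537622, minus strand): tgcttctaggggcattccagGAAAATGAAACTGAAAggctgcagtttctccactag
Rsad2, not called (chr12:26456543-26456592, minus strand): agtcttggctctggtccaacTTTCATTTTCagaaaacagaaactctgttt

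Isg15 held 3 overlapping matches, between 78 and 57 bases before its start, and Ifit3 held 2, between 156 and 113 bases before it. The 50 bases shown for Trim30a and Trim30d were identical. Of the 16 members with an ISRE core, 7 rose (43.8%), and of the 21 with a window and no core, 10 rose (47.6%). Over all tested genes with a window the order was the other way, with 11.2% risen among those with the core and 5.57% among those without. For the GAS core, 5 of 6 members with a match rose and 12 of 31 without, against 6.36% and 5.74% of all tested genes. These counts are described with no test.

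**Figure D1:**
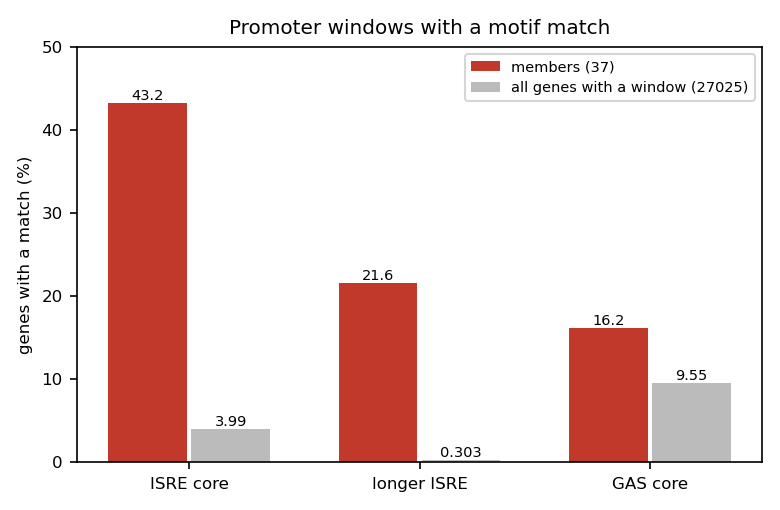
Percentage of genes whose RefSeq promoter window holds a match to each motif (vertical axis), for the 37 members with a window (red) and all 27025 genes with a window (grey). The ISRE core was found for 43.2% of members and 3.99% of all genes, and the GAS core for 16.2% and 9.55%.

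The libraries held 18778776 to 23503756 recovered reads each, and the member with the fewest had 25 reads in its lowest library. The knockout's target did not show as reduced: Csnk2a1 stood at 4069, 3861 and 3939 normalised reads in WT and at 4124, 3951 and 4060 in cKO (log2 difference 0.03 ± 0.05, adjusted p = 0.734). All directions below are therefore those of the library labels. The deleted exons are not stated, so a check within them was not made. Of 8 general B cell markers limma and edgeR called 0, DESeq2 called 2, and 3 had an unadjusted p under 0.05. Their summed levels were 190073 to 202631 in WT and 193273 to 195969 in cKO. Of the 10 marginal zone markers 6 rose, and of the 7 follicular markers 4 fell, beside 5.08% and 4.97% of all genes tested. Marginal zone sums were 132160 to 140244 in WT and 135757 to 166390 in cKO, so they overlapped. Follicular sums were 54262 to 59941 in WT and 40373 to 56553 in cKO. The marginal zone markers S1pr3 (-0.06 ± 0.13) and Notch2 (-0.11 ± 0.06) lay below 0 and the follicular marker Cxcr5 (0.26 ± 0.08) above it, all without a call. The follicular count was 6 without cKO replicate 2 and 0 to 2 without each other library. The part of these marker differences in the results below was not tested.

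Of the 50 members, 24 rose in cKO, 0 fell and 26 were not called. The difference was above 0 for 45 and below 0 for 5. Among all genes tested, 5.08% rose, 4.97% fell and 10.1% were called in either direction, whereas 48% of the members rose. The members were chosen with earlier results of these data known, and the part of that choice in these shares was not tested. Every cKO value was above every WT value for 34 members, against 15.9% of all genes. The median log2 difference was 0.295 over the members and -0.000864 over all genes, and the members ranged from -0.159 (Ifi204) to 1.69 (Ifi44). Each difference is taken as cKO minus WT, after log2(value + 1), and was tested with limma across all genes with Benjamini-Hochberg adjustment and a threshold of 0.05, and ± marks a standard error. In bulk RNA, a change in the number of expressing cells and a change in RNA per cell cannot be told apart. Leaving out 1 library moved the count of risen members to 17 without WT replicate 1 and 13 without WT replicate 3. It was 27 without cKO replicate 2 and 18 to 21 for the other libraries. The share of all genes that rose was 1.95% without WT replicate 1, 1.76% without WT replicate 3 and 5.3% without cKO replicate 2. It was 1.66% to 3.96% for the other libraries. No member fell in any of these fits, with edgeR or DESeq2, or at an unadjusted p under 0.05, where 34 were higher.

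**Figure D2:**
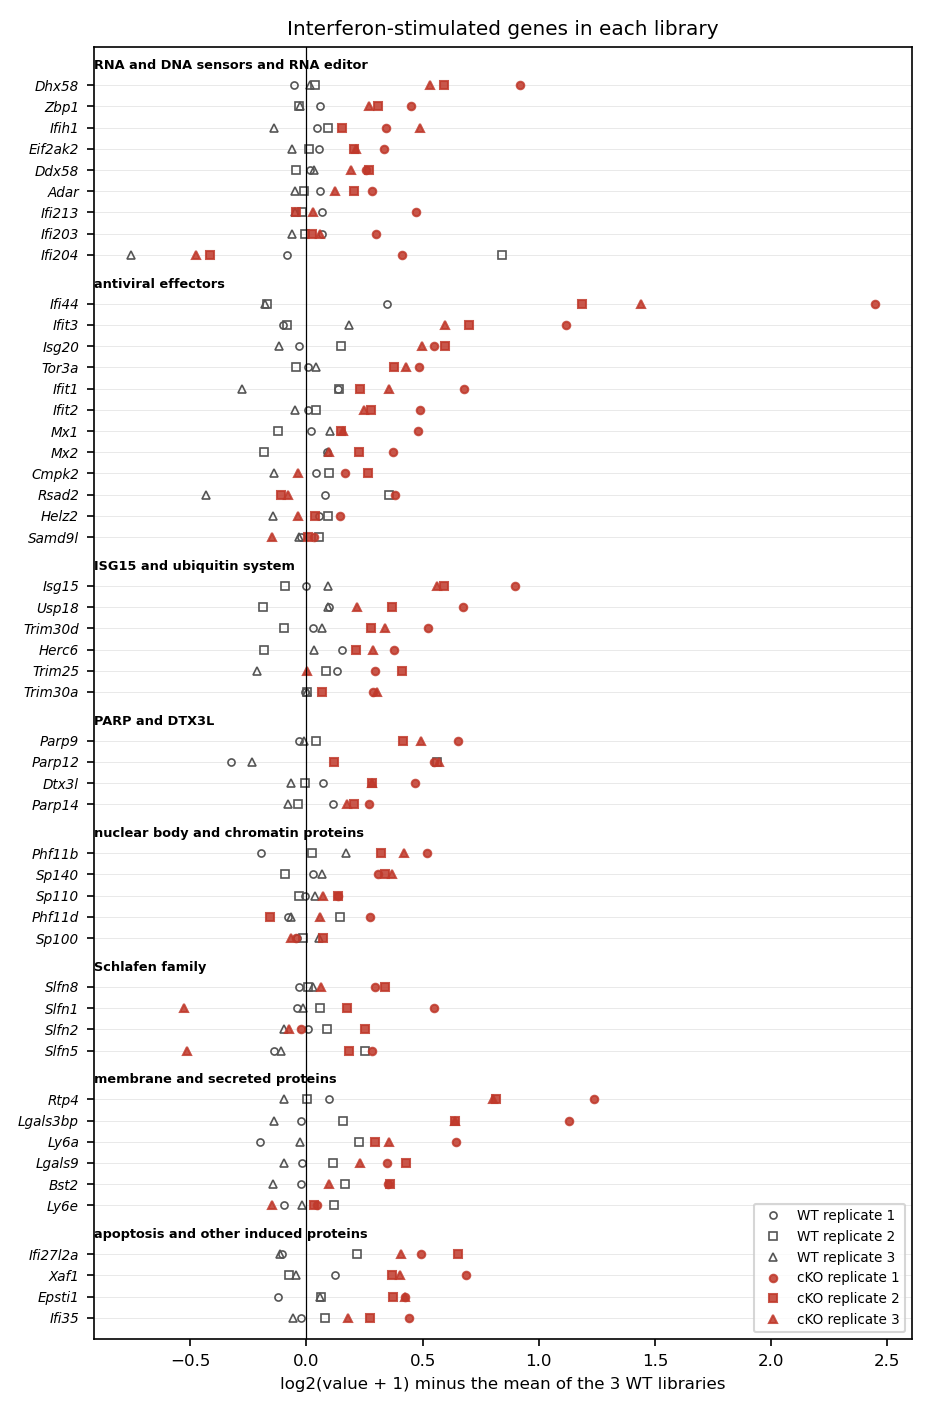
Each of the 50 members (rows, grouped by role) in each of the 6 libraries, as log2(value + 1) minus the mean of the 3 WT libraries (horizontal axis). Open symbols are WT and filled symbols cKO, and in 34 rows all filled symbols lie to the right of all open ones.

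In the group of RNA and DNA sensors, which also holds the RNA editor gene Adar, 5 of 9 rose. Among them were Adar and 2 of the 3 RIG-I-like receptors. Dhx58, which encodes LGP2, the RIG-I-like receptor without a signalling domain, stood at 794, 846 and 832 normalised reads in WT and at 1557, 1242 and 1192 in cKO. Its log2 difference was 0.68 ± 0.09 (adjusted p = 0.0024), the largest of the group. Ddx58, encoding the RNA sensor RIG-I, stood at 3309, 3169 and 3343 in WT and at 3907, 3944 and 3740 in cKO. The groups did not overlap, and the difference of 0.24 ± 0.05 passed the test (adjusted p = 0.019). Ifih1, encoding the sensor of long double-stranded RNA MDA5, differed by 0.33 ± 0.12 and did not pass (adjusted p = 0.0974), although its groups did not overlap either. Zbp1, a sensor of Z-form nucleic acid, stood at 1022, 960 and 965 in WT and at 1342, 1216 and 1185 in cKO (0.34 ± 0.07, adjusted p = 0.0129).

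Smaller differences were found for the kinase and the editing enzyme that act on double-stranded RNA. Eif2ak2, encoding PKR, which halts translation, rose by 0.25 ± 0.06 (adjusted p = 0.031). Adar, encoding the enzyme that edits adenosine to inosine, rose by 0.20 ± 0.06 and lay at the threshold (adjusted p = 0.0497). The call of Adar was lost without each of the 6 libraries in turn, with an adjusted p of up to 0.169 without WT replicate 3. Eif2ak2 kept its call without cKO replicate 2 and lost it without each other library, with an adjusted p of up to 0.12. Ddx58 lost its call without each WT library (adjusted p up to 0.0603), and Zbp1 without WT replicate 3 (adjusted p = 0.0607). Adar shares 16.8% of its exon bases with Chrnb2 on the other strand, and without a known strand setting their reads cannot be told apart.

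The members of the IFI200 family, which bind DNA or associate with chromatin, were not called. Ifi203, the sensor group's most abundant gene, stood at 13466, 12771 and 12319 in WT and at 15802, 13072 and 13364 in cKO, so the groups overlapped (0.13 ± 0.08, adjusted p = 0.305). Ifi213 likewise had its highest value, 6913, in cKO replicate 1, with 4834 and 5078 in the other cKO libraries and 4821 to 5215 in WT (adjusted p = 0.413). Ifi204 was low, at 39.5, 75.9 and 24.4 in WT and at 56.2, 31.3 and 29.9 in cKO (-0.16 ± 0.39, adjusted p = 0.838). Its interval of -1.02 to 0.70 spans both directions. These genes have close paralogs, so reads could be shared between copies.

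Among the antiviral effectors, 5 of 12 rose. Tor3a, encoding a torsin-family ATPase, had the smallest adjusted p of the group: it stood at 1812, 1748 and 1859 in WT and at 2530, 2343 and 2434 in cKO (0.43 ± 0.06, adjusted p = 0.00161). Isg20, encoding an exonuclease that degrades RNA, stood at 336, 382 and 317 in WT and at 504, 520 and 486 in cKO (0.55 ± 0.09, adjusted p = 0.0064). The largest difference of any member was that of Ifi44, a gene chosen here after its values were seen. It stood at 63.7, 44.3 and 44.0 in WT and at 276, 115 and 137 in cKO (1.69 ± 0.30, adjusted p = 0.00753). The cKO value of Ifi44 was more than 2 times as high in replicate 1 as in replicate 2, and without cKO replicate 1 the difference was 1.31 (adjusted p = 0.00906).

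The IFIT proteins bind viral RNA and block its translation, and their 3 listed genes lie in 1 cluster. Ifit3 stood at 517, 524 and 629 in WT and at 1205, 901 and 839 in cKO (0.81 ± 0.13, adjusted p = 0.00472). Ifit2 rose by 0.34 ± 0.08 (adjusted p = 0.0234), a call lost without WT replicate 1, WT replicate 3 or cKO replicate 1 (adjusted p up to 0.0936). Ifit1 stood at 349, 351 and 262 in WT and at 509, 373 and 407 in cKO, and its difference of 0.42 ± 0.14 did not pass (adjusted p = 0.0859). The groups of Ifit1 did not overlap, and its promoter stretch above holds 2 ISRE cores, as that of Ifit3 does.

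The other effectors were not called. Mx1, a gene of the Mx GTPase family, differed by 0.26 ± 0.10 (adjusted p = 0.118) and Mx2 by 0.23 ± 0.11 (adjusted p = 0.217), both without overlap of the groups. Rsad2, encoding viperin, which makes a chain-terminating nucleotide, stood at 655, 793 and 459 in WT and at 807, 575 and 586 in cKO. The WT values of Rsad2 spanned nearly the whole range of the cKO values (0.06 ± 0.18, adjusted p = 0.86). Cmpk2, the neighbouring nucleotide kinase gene, differed by 0.13 ± 0.10 (adjusted p = 0.411). The 2 effectors with the highest values lay close to 0. Helz2, encoding a helicase, stood at 21965, 22574 and 19174 in WT and at 23408, 21712 and 20643 in cKO (0.05 ± 0.08, adjusted p = 0.736, interval -0.12 to 0.21). Samd9l, encoding an inhibitor of translation, stood at 9740, 10268 and 9685 in WT and at 10107, 9952 and 8925 in cKO (-0.04 ± 0.06, adjusted p = 0.752, interval -0.17 to 0.10).

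Of the 6 genes of the ISG15 and ubiquitin system, 2 rose and all 6 lay above 0. The count was 5 with DESeq2 and with robust moderation, and 4 without cKO replicate 2. Isg15 encodes the ubiquitin-like protein that is conjugated to other proteins during an interferon response. Isg15 stood at 310, 291 and 331 in WT and at 579, 467 and 458 in cKO (0.68 ± 0.11, adjusted p = 0.00454). Usp18, encoding the protease that removes ISG15 and that also dampens the receptor, stood at 371, 305 and 371 in WT and at 555, 448 and 405 in cKO. The groups did not overlap, but the difference of 0.42 ± 0.13 missed the threshold (adjusted p = 0.0592). Herc6, encoding the ISG15 ligase of the mouse, differed by 0.29 ± 0.08 and missed it as well (adjusted p = 0.0529). Trim25, encoding a ubiquitin ligase that acts on RIG-I, had overlapping groups (0.24 ± 0.11, adjusted p = 0.192).

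The TRIM30 proteins are ubiquitin ligase-like proteins whose genes lie side by side. Trim30d stood at 1846, 1694 and 1899 in WT and at 2601, 2198 and 2291 in cKO (0.38 ± 0.07, adjusted p = 0.0115). Trim30a stood at 5097, 5129 and 5137 in WT and at 6244, 5361 and 6320 in cKO, a difference of 0.22 ± 0.07 that did not pass (adjusted p = 0.0593). The WT values of Trim30a lay close together, and its value in cKO replicate 2 was near them. Both genes share the printed promoter stretch, and reads could be split between the copies.

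Of the PARP and DTX3L genes, 2 of 4 rose. PARP9 and the ubiquitin ligase DTX3L form a complex, and their genes lie head to head beside Parp14. Parp9 stood at 1577, 1661 and 1602 in WT and at 2539, 2149 and 2268 in cKO (0.52 ± 0.07, adjusted p = 0.00163). Dtx3l stood at 2143, 2029 and 1949 in WT and at 2817, 2476 and 2480 in cKO (0.34 ± 0.07, adjusted p = 0.0117). Both rose with no overlap, and the call of Dtx3l was lost without WT replicate 3 (adjusted p = 0.0625). The 2 genes share 458 exon bases on opposite strands. Parp14, encoding a mono-ADP-ribosyltransferase, stood at 4188, 3774 and 3655 in WT and at 4656, 4455 and 4358 in cKO (0.22 ± 0.06), just short of the threshold (adjusted p = 0.0503). Parp12 was low, with group means of 51.8 ± 19.1 and 67.1 ± 11.4 (SD, n = 3), and its groups overlapped (adjusted p = 0.346).

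**Figure D3:**
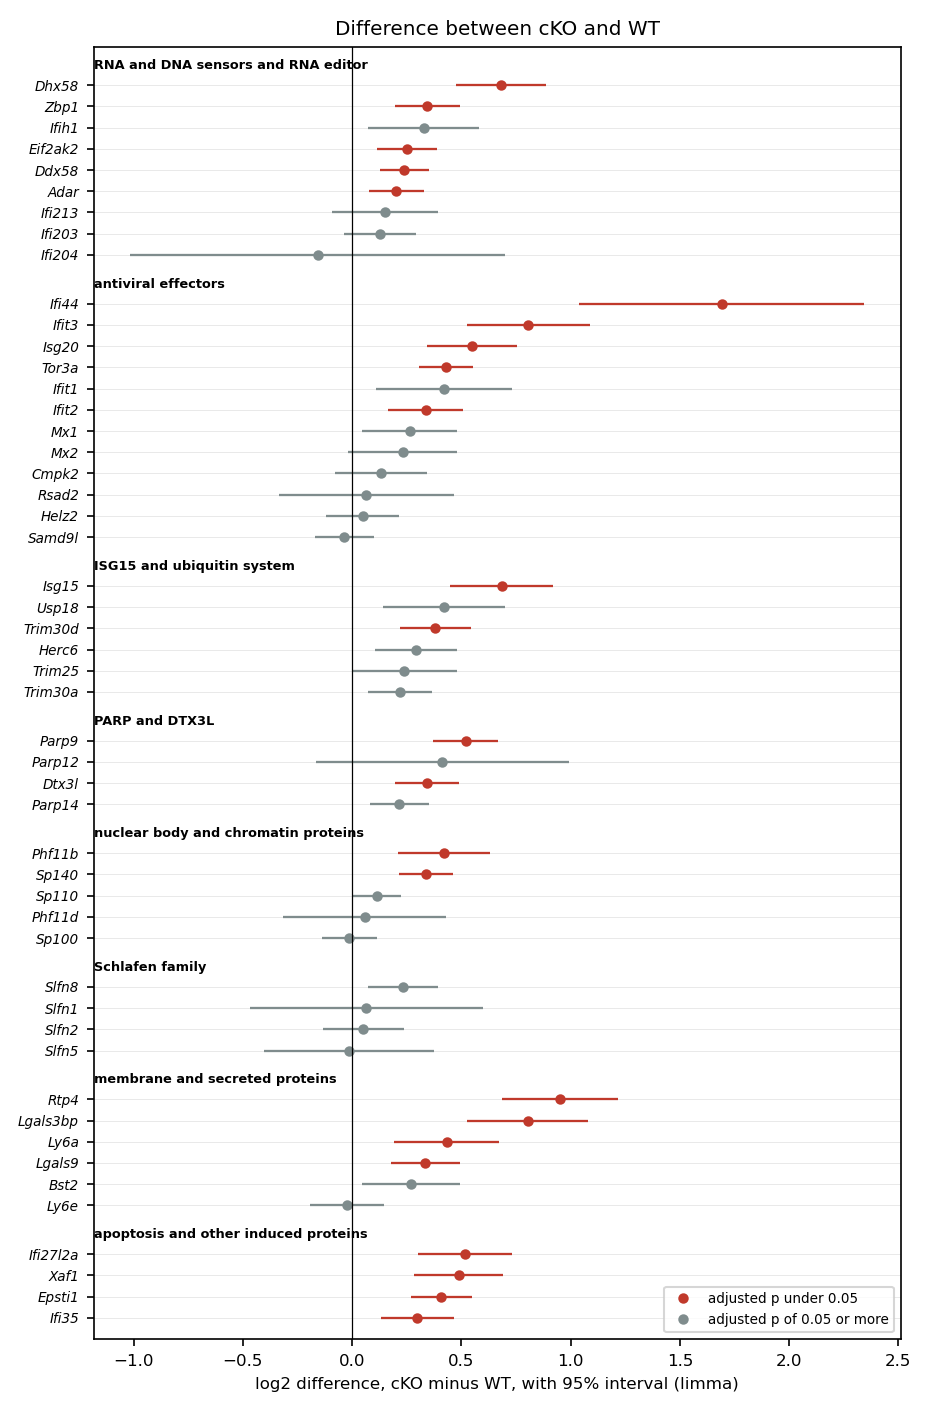
Log2 difference, cKO minus WT, of each member (points) with its 95% interval from limma (lines), grouped by role. The 24 members that rose are red, and the widest interval among the 26 others (grey) is that of Ifi204, from -1.02 to 0.70.

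Among the nuclear body and chromatin proteins, 2 of 5 rose, and 3 of them are readers of the SP100 family whose genes lie together. Sp140 stood at 4538, 4176 and 4660 in WT and at 5516, 5624 and 5744 in cKO (0.34 ± 0.06, adjusted p = 0.00575). Sp110 differed by 0.11 ± 0.05 without overlap and was not called (adjusted p = 0.17). Sp100, a defining protein of PML nuclear bodies, stood at 10558, 10746 and 11282 in WT and at 10535, 11392 and 10376 in cKO (-0.01 ± 0.06, adjusted p = 0.912). The 3 neighbours thus had 1 call, and the interval of Sp100 ran from -0.14 to 0.11. The antisense gene Gm17017 covers 26.4% of the exon bases of Sp140.

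Phf11b and Phf11d are neighbouring PHD finger genes. Phf11b stood at 642, 748 and 829 in WT and at 1056, 919 and 984 in cKO (0.42 ± 0.10, adjusted p = 0.0219), a call lost without WT replicate 1, cKO replicate 1 or cKO replicate 3 (adjusted p up to 0.0752). Phf11d was lower in level, with a mean of 94.4 ± 8.60 in the 3 WT libraries and of 98.8 ± 14.9 in the 3 cKO libraries (SD), and was not called (adjusted p = 0.864). Similar copies in this family make the split of reads between them uncertain.

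None of the 4 Schlafen genes was called by limma or edgeR, 1 was called by DESeq2, and 1 had an unadjusted p under 0.05, Slfn8 in both cases. Schlafen proteins include tRNA-cutting enzymes and regulators of lymphocyte quiescence. Slfn2, the most abundant of the 4 and the one known for its part in quiescence, stood at 3569, 3767 and 3322 in WT and at 3490, 4223 and 3364 in cKO (0.05 ± 0.08, adjusted p = 0.752). Slfn5 stood at 1351, 1773 and 1380 in WT and at 1814, 1692 and 1044 in cKO (-0.01 ± 0.18, adjusted p = 0.972). The value of Slfn5 in cKO replicate 3 was the lowest of the 6 libraries. Slfn1 also had its lowest value, 60.9, in cKO replicate 3, and its highest, 129, in cKO replicate 1 (adjusted p = 0.896). Slfn8 alone had groups that did not overlap, with 1900 to 1982 in WT and 2034 to 2461 in cKO (0.23 ± 0.07, adjusted p = 0.0662).

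Among the membrane and secreted proteins, 4 of 6 rose. Rtp4, encoding a transmembrane chaperone of G protein-coupled receptors, had the smallest adjusted p of the 50 members. It stood at 317, 297 and 278 in WT and at 701, 523 and 519 in cKO, a 1.93-fold difference (log2 0.95 ± 0.12, adjusted p = 0.0014). Lgals3bp, encoding a secreted glycoprotein that binds galectins, stood at 777, 881 and 717 in WT and at 1728, 1230 and 1230 in cKO (0.80 ± 0.13, adjusted p = 0.00445). For both genes cKO replicate 1 was the highest library and the other cKO libraries were nearly equal. Lgals9, encoding galectin-9, stood at 1784, 1955 and 1687 in WT and at 2298, 2429 and 2118 in cKO (0.34 ± 0.07, adjusted p = 0.0179). That call was lost without WT replicate 1 or WT replicate 3 (adjusted p up to 0.081).

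The other 3 genes of this group encode glycosylphosphatidylinositol-anchored proteins. Ly6a, encoding the surface antigen Sca-1, was above its WT values in all 3 cKO libraries, at 8880, 6987 and 7280 against 4955, 6655 and 5578 (0.43 ± 0.11, adjusted p = 0.0328). Its call was lost without WT replicate 1, WT replicate 3, cKO replicate 1 or cKO replicate 3 (adjusted p up to 0.128). Bst2, encoding tetherin, which holds budding virions to the cell surface, had overlapping groups (0.27 ± 0.10, adjusted p = 0.123). Ly6e, the most abundant member, stood at 27916, 32416 and 29472 in WT and at 30836, 30531 and 26972 in cKO (-0.02 ± 0.08, adjusted p = 0.878). Its interval ran from -0.19 to 0.14.

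All 4 remaining members rose. Epsti1 stood at 1698, 1932 and 1926 in WT and at 2480, 2397 and 2481 in cKO (0.41 ± 0.06, adjusted p = 0.00432). Ifi27l2a, encoding a small mitochondrial protein of the IFI27 family, stood at 825, 1031 and 821 in WT and at 1248, 1393 and 1175 in cKO (0.52 ± 0.10, adjusted p = 0.0104). Xaf1, encoding an antagonist of the apoptosis inhibitor XIAP, stood at 814, 710 and 725 in WT and at 1205, 968 and 991 in cKO (0.49 ± 0.09, adjusted p = 0.011). In none of the 3 did the groups overlap. Ifi35, encoding a partner of NMI, rose by 0.30 ± 0.08 (adjusted p = 0.0335) and shares 16.8% of its exon bases with the antisense gene Gm11626. Without WT replicate 3 the adjusted p was 0.121 for Ifi35, 0.0547 for Ifi27l2a and 0.0547 for Xaf1. Ifi35 and Ifi27l2a also lost their call without WT replicate 1, and Ifi35 without cKO replicate 1.

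The median difference was smaller among the members with higher levels. Per kilobase of exon, the WT level ran from 8.27 normalised reads for Ifi44 to 7911 for Ly6e, with Ly6a at 4754 and Slfn2 at 2135. Of the 24 members with a WT mean below 1000 normalised reads, a level chosen after the values were seen, 12 rose and the median difference was 0.415. Of the 26 members at or above it, 12 rose and the median was 0.235. Over all genes tested the medians of the same classes were -0.00443 and 0.00249, and 4.37% and 6.7% rose. Split at the members' median of 383 normalised reads per kilobase in WT, the medians were 0.343 below and 0.238 at or above it. In each of these classes 12 of 25 members rose, against 4.07% and 9.28% of all genes tested. Of the 5 members with the most normalised reads, not scaled by length, Ly6e, Helz2, Sp100 and Samd9l lay within 0.05 of 0. Ifi203, the other, was at 0.13. Per kilobase, the 5 highest were Ly6e, Ly6a, Slfn2, Ifi27l2a and Ifi203. Ly6a (0.43) and Ifi27l2a (0.52) rose, and the others were not called.

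**Figure D4:**
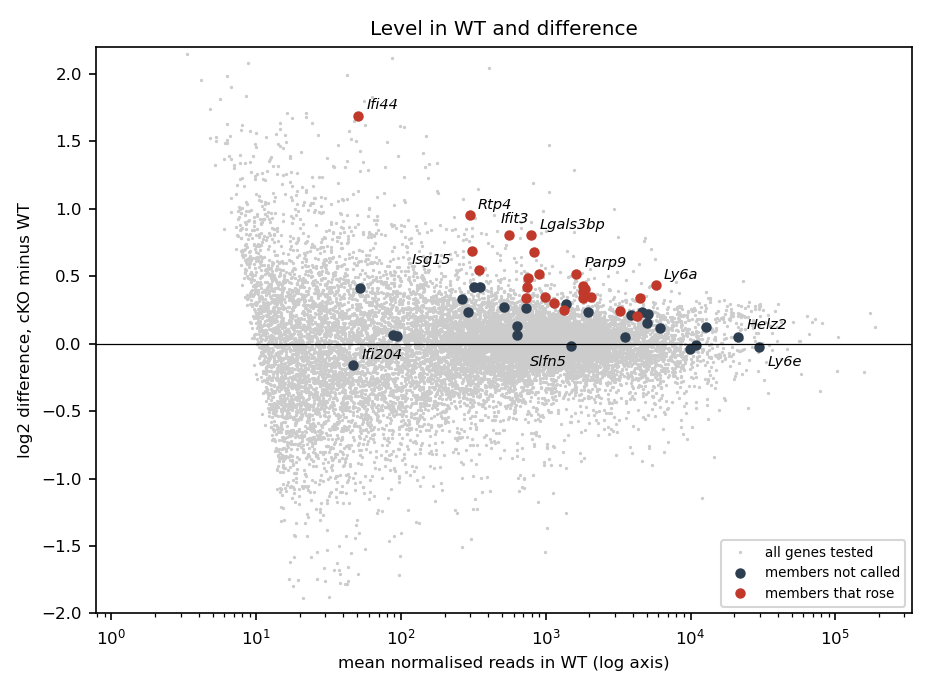
Log2 difference, cKO minus WT (vertical axis), against the mean normalised reads in WT (horizontal log axis), for all genes tested (grey), members not called (dark) and members that rose (red). 27 genes lie outside the vertical axis, and Ly6e and Helz2, at the right, lie within 0.05 of 0.

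The 26 members without a call fell into 2 sets. In 10 of them every cKO value was above every WT value, with a median difference of 0.248. In the other 16 the groups overlapped, and their median was 0.0611. In all, 17 members lay beside another member, in 7 runs. The call was shared in 3 runs: Ifit2 and Ifit3 both rose, and none was called among Slfn8, Slfn2 and Slfn1 or in the pair of Rsad2 and Cmpk2. The call differed within the other 4. Parp9 and Dtx3l rose and Parp14 was not called, and 1 gene each rose in the run of Sp110, Sp140 and Sp100, the Trim30 pair and the Phf11 pair.

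Library by library, the members were highest in cKO replicate 1. The mean over all 50 members of the centred log2 value was -0.162, -0.11 and -0.225 in WT and 0.318, 0.116 and 0.0619 in cKO, so the groups did not overlap. Replicate 1 was the highest cKO library for 18 of the 24 risen members (75%), against 46.4% of all genes that rose and 35% of all genes tested. The same library had the highest macrophage marker sum in its group, 2960, against 1523 and 1617 in the other cKO libraries and 1897 to 3219 in WT. Its conventional dendritic cell sum of 396 was the highest of all 6, against 286 to 337 in the rest. Of the 4 conventional dendritic cell markers tested, Zbtb46 rose, from 58.2, 55.9 and 34.2 in WT to 103, 89.1 and 90.8 in cKO (0.95 ± 0.23, adjusted p = 0.0252). Zbtb46 was not called when WT replicate 3, cKO replicate 1 or cKO replicate 3 was left out, and Itgax (-0.13 ± 0.15), Flt3 (-0.45 ± 0.21) and Xcr1 (0.06 ± 0.40) were not called. Without this library 18 members rose, 0 fell and the median difference was 0.239.

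Plasmacytoid dendritic cells, known as producers of interferon, were looked for by 8 markers, of which 4 were tested. Of these limma and DESeq2 called 0 and edgeR 1, and 2 had an unadjusted p under 0.05, with opposite signs. These were Ccr9 (-0.69 ± 0.27) and Pacsin1 (0.28 ± 0.08). The defining gene Siglech was low, at 17.6, 4.22 and 8.80 in WT and at 13.4, 14.2 and 18.6 in cKO, and Smim5 differed by -0.38 ± 0.19. The sum was 744 to 821 in WT and 796 to 923 in cKO, and most of it was Pacsin1, at 575 to 652 in WT and 687 to 784 in cKO. None of the 12 macrophage and monocyte markers was called by limma, edgeR or DESeq2 with all libraries, and 2 had an unadjusted p under 0.05. Without cKO replicate 1 limma called 4 of them as lower in cKO, and without cKO replicate 2 it called 1 as higher. Neutrophil sums were 45.0 to 130 in WT and 26.8 to 147 in cKO, and T and NK cell sums 53.8 to 90.0 and 47.2 to 60.9. Plasma cell sums were 9243 to 13617 in WT and 7390 to 8895 in cKO. Most of each sum was Irf4, at 6740 to 11322 in WT and 5122 to 6693 in cKO. The groups of Sdc1, Prdm1, Xbp1 and Jchain overlapped, and limma called none of these genes. Erythroid and platelet sums were 736 to 11181 in WT and 845 to 5069 in cKO. The part of these cells in the members' values was not tested.

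Upstream of the members, 11 receptor and transducer genes were tested, of which 1 rose and 1 fell, with a median of -0.018. Over all genes tested, 10.1% were called in either direction. Irf9, encoding the DNA-binding subunit of ISGF3, stood at 2709, 2405 and 2359 in WT and at 3165, 3023 and 2902 in cKO (0.28 ± 0.07, adjusted p = 0.0232). Ifnlr1, encoding the specific chain of the interferon lambda receptor, was low and fell, from 32.9, 26.4 and 19.6 in WT to 9.81, 6.63 and 5.16 in cKO (-1.74 ± 0.36, adjusted p = 0.0163). Stat2 (-0.14 ± 0.06, adjusted p = 0.142) and Ifnar1 (-0.11 ± 0.07, adjusted p = 0.339) were not called. These 2 genes, named after their values were seen, encode a transducer and a receptor chain of type I interferon. Every cKO value of Stat2 was below every WT value, and the groups of Ifnar1 overlapped. Of the 11 genes, 3 had all cKO values above WT and 3 had all below. Among the 14855 genes tested these counts were 2368 and 2319. The call of Irf9 was lost without WT replicate 2, WT replicate 3, cKO replicate 1 or cKO replicate 3 (adjusted p up to 0.101), and that of Ifnlr1 without WT replicate 1 or cKO replicate 3 (up to 0.0767).

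Of the interferon regulatory factors, 1 of 7 tested rose and 1 fell, beside 5.08% and 4.97% of all genes tested. Irf7, encoding the factor that amplifies the transcription of interferon genes, stood at 656, 569 and 631 in WT and at 1281, 1349 and 992 in cKO (0.95 ± 0.11, adjusted p = 0.000748). Irf4, encoding a factor of plasma cell and B cell differentiation, stood at 10152, 6740 and 11322 in WT and at 5122, 5174 and 6693 in cKO (-0.71 ± 0.16, adjusted p = 0.0237). Irf7 kept its call without each library, and Irf4 lost it without WT replicate 1, WT replicate 3 or cKO replicate 1 (adjusted p up to 0.104). Of the Oas genes, whose products sense double-stranded RNA, 7 of 8 rose and the median was 0.734, with Oas1a at 0.67, Oas2 at 1.12 and Oasl2 at 0.80 on the log2 scale. This count fell to 3 without WT replicate 3 and to 4 without any other library except cKO replicate 2. Several Oas genes are close copies, so their reads are uncertain.

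Of 17 nucleic acid sensing genes upstream of interferon, 3 rose and 0 fell. For this and the following lists, the shares over all genes tested were 5.08% risen and 4.97% fallen. Tlr3, encoding the endosomal receptor of double-stranded RNA, stood at 741, 790 and 921 in WT and at 2094, 1443 and 2137 in cKO (1.19 ± 0.14, adjusted p = 0.000748). Tlr7, encoding the receptor of single-stranded RNA, rose by 0.49 ± 0.11 (adjusted p = 0.0232) and Ticam1, encoding the TLR3 adaptor TRIF, by 0.33 ± 0.09 (adjusted p = 0.0441). Tlr3 was called without each library in turn. Tlr7 lost its call without WT replicate 1, WT replicate 3 or cKO replicate 3 (adjusted p up to 0.102), and Ticam1 kept it only without cKO replicate 2 (up to 0.157). Of 18 genes induced mainly by interferon gamma, 3 rose and 1 fell. The risen count was 1 without WT replicate 1, WT replicate 3 or cKO replicate 3, and 5 without cKO replicate 2. The 3 risen genes encode GTPases that attack pathogen vacuoles: Gbp2 rose by 0.54 ± 0.07 (adjusted p = 0.00193), Gbp7 by 0.37 ± 0.08 (adjusted p = 0.0164) and Gbp3 by 0.28 ± 0.07 (adjusted p = 0.0252). Ciita, encoding the master regulator of MHC class II, fell (-0.35 ± 0.06, adjusted p = 0.00584). The call of Gbp7 was lost without WT replicate 1, WT replicate 3 or cKO replicate 3 (adjusted p up to 0.0689). Gbp3 lost its call without these libraries or cKO replicate 1 (up to 0.103), and Gbp2 and Ciita were called without each library in turn. None of 11 restraints of interferon signalling was called by limma, edgeR or DESeq2, and 0 had an unadjusted p under 0.05 in limma. Of the 84 distinct genes of these lists 71 were tested, and 15 rose and 3 fell, counts that ran from 6 risen without WT replicate 3 to 17 without cKO replicate 2. Of the 9 interferon genes listed, 0 were among the genes tested, so their levels could not be compared.

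**Figure D5:**
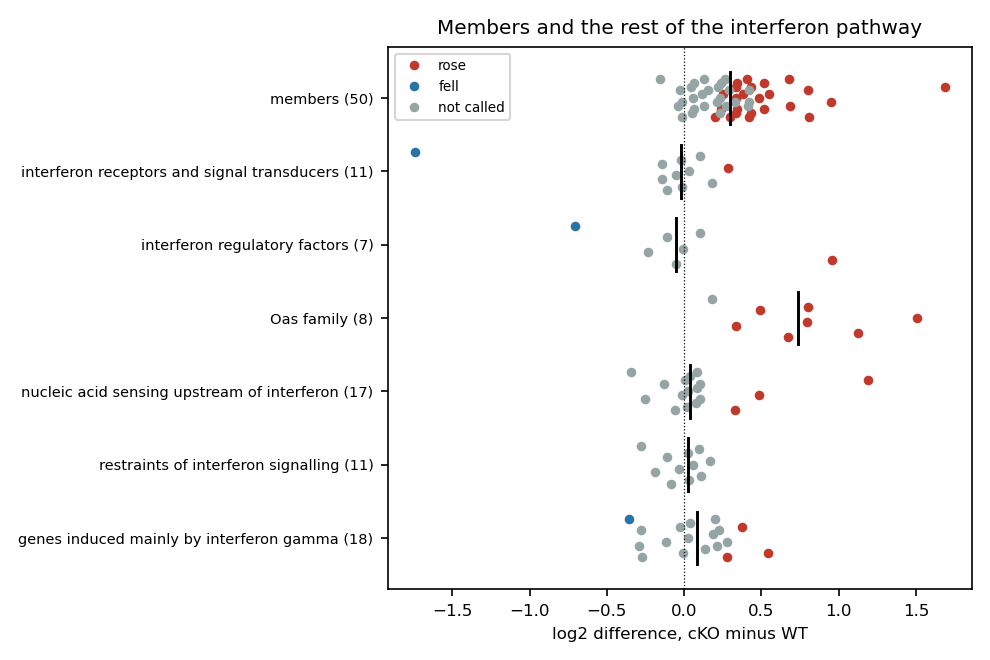
Log2 difference, cKO minus WT (horizontal axis), of the 50 members and of the tested genes of 6 other lists (number in brackets), with points coloured by call and a black bar at each median. The median was 0.295 for the members, 0.734 for the Oas list and -0.018 for receptors and transducers.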

How the data were processed

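RNA of sorted marginal zone B cells was compared between 3 WT and 3 cKO libraries. Per the submitters' processing notes, bcl2fastq 2.17, Trimmomatic 0.36, STAR 2.5.2b and the build mm9 were used. For the counter, annotation, strand setting and normalization, no tool is named in the sources used here. Each deposited value is a signal, a read count divided by 1 factor per library, as the values show: all were whole multiples of 1 read, within 0.02 of a read (100% in each library). 1 read was worth 0.891 to 1.10, and every gene in the table had at least 61 reads over the 6 libraries.

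GENCODE M21 named 14808 of 14864 identifiers. limma 3.58.1 (trend, R 4.3.3) was run on log2(value + 1) for the 14855 genes with a mean of at least 10, with genotype as the only term. This scale understates the change of low genes. edgeR 4.0.16 called 1473 genes and DESeq2 1.42.0 called 1630 on the recovered reads, against 1494 by limma. Replicates differed by more than sampling noise (chi-square per gene 6.37 to 12.7). The fits were also run on simulated counts with known changes and the same dispersion for every gene. That setting does not cover the loss of calls without single libraries seen here. Each such fit also had fewer libraries in 1 group, and the part of this in the lost calls was not tested. In addition, 16 alternatives were tried.

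The members and lists were chosen with earlier results of these data known. Values in each library are given, per role group, for the most abundant member, the 3 called members with the smallest adjusted p and members below 0, and up to 3 called genes are named per pathway list. Any other per-library values were chosen after they were seen. For 2 genes of the pathway lists, results are not reported here, and the lists were counted without them.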

Additional observations from a re-analysis of the deposited data

How the results depend on the processing

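Over the 16 alternatives no member fell, and 12 of the 24 risen members were called in every one: Dhx58, Ifit3, Isg20, Tor3a, Ifi44, Isg15, Trim30d, Parp9, Sp140, Lgals3bp, Rtp4 and Epsti1. edgeR called 25 members, DESeq2 30 and robust moderation 28, which lost Ly6a. Rescaling without immunoglobulin genes gave 23 and lost Adar. Leaving out 1 library gave 13 to 27 risen members, medians of 0.239 to 0.343, 497 to 1730 genes called in all, and 6 to 17 risen and 1 to 4 fallen pathway genes. The longer ISRE form matched 8 members against 16 for the core. After each gene was centred within its group, same-numbered libraries correlated at -0.075, -0.02 and 0.147. Not every library correlated best with its own number. With so few libraries per group, these values cannot decide whether the samples were paired. With the replicate number as a block, 27 members rose, 5 of them in the ISG15 and ubiquitin system, Ly6a was not called, 5 genes induced mainly by interferon gamma rose and 1551 genes were called.

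Some members without a call changed sign. Slfn5 was at 0.0216 with edgeR and 0.0153 with DESeq2. Leaving out 1 library at a time gave -0.164 to 0.234 for Slfn5, -0.536 to 0.261 for Ifi204, -0.0725 to 0.0384 for Ly6e, -0.152 to 0.241 for Rsad2, -0.0246 to 0.0932 for Helz2, -0.0545 to 0.0144 for Sp100, -0.0087 to 0.249 for Ifi213, -0.0501 to 0.166 for Phf11d, -0.176 to 0.361 for Slfn1, -0.0502 to 0.114 for Slfn2 and -0.0702 to 0.0195 for Samd9l. The causes were not tested.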

Other observations

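Outside the members, the longer ISRE form was found in the promoter window of 41 tested genes, of which 10 rose (24.4%) and 3 fell (7.32%). Of the 9878 tested genes with a window and without it, 5.57% rose and 5.26% fell. These counts carry no test, and some of the genes have near-identical copies.

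Of the called genes, 7 stand in no pathway or marker list, and the rest were already counted in such lists above. Sema6b, encoding a transmembrane semaphorin, stood at 320, 260 and 264 normalised reads in WT and at 531, 425 and 489 in cKO (log2 difference 0.77 ± 0.12, adjusted p = 0.00363). Ifit3b (0.87 ± 0.18, adjusted p = 0.0139) and Phf11a (0.69 ± 0.18, adjusted p = 0.0408), close copies of members, and Ddx60 (0.39 ± 0.11, adjusted p = 0.0486) rose as well. Cd46, encoding a complement regulator, fell from 188, 176 and 202 in WT to 117, 132 and 123 in cKO (-0.60 ± 0.13, adjusted p = 0.0172). Trim34a (-0.29 ± 0.05, adjusted p = 0.00922) and Gna13 (-0.25 ± 0.07, adjusted p = 0.0456) fell. Without 1 library at a time, Sema6b, Ifit3b and Trim34a kept their call. Cd46 lost it without WT replicate 1, WT replicate 3 or cKO replicate 3 (adjusted p up to 0.0797), and Phf11a, Ddx60 and Gna13 lost it without each library except cKO replicate 2 (up to 0.151).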
